A study of Homo sapiens with 7 samples.

Results

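MDM2, MDM4, PPM1D, CCNG1 and RCHY1 encode proteins that restrain p53, and here they are described across p53-null colon cancer cells given back different forms of p53 and treated with arsenic trioxide (ATO). The 5 genes were chosen by name, as feedback regulators of p53, and all 5 were found once each among the 19699 genes of the deposited count table. The cells were HCT116 p53-/-, a derivative of an established human colon carcinoma line that lacks functional p53, so every group shares that deletion and any p53 in them comes from the infection. There were 7 groups with 1 library each: wild-type p53 without drug, and vector, p53-M133T and p53-R273H, each without drug and with 1 µg/ml ATO for 24 h. The control is called vector in the series design and vehicle in the treatment protocol, and is called vector here. Both mutant forms carry 1 amino acid change in the domain with which p53 binds DNA, and ATO is an arsenic drug given in acute promyelocytic leukemia. The labels name neither the promoter that drives p53 nor the number of clones.

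p53 is a transcription factor that is kept low in unstressed cells because some of its own target genes encode its inhibitors. MDM2 is the central one, a ubiquitin ligase that binds p53, blocks its activation domain and marks it for degradation. Its gene has an internal promoter with p53 response elements, which closes the loop from p53 to MDM2 and back. MDM4 is an MDM2 relative that binds and inhibits p53 with little ligase activity of its own. PPM1D encodes the phosphatase WIP1, which removes activating phosphates from p53 and from the kinases upstream of it. CCNG1 encodes cyclin G1, which recruits the phosphatase PP2A to MDM2, and RCHY1 encodes PIRH2, another ubiquitin ligase of p53. MDM2, PPM1D and CCNG1 are well-known p53 targets in human cells.

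The internal promoter of MDM2 is shown because it holds the closest match to the p53 response element of the member promoters, searched without a spacer. That element is 2 copies of a 10-base half-site. The window is RefSeq's, of 250 bases before to 50 after a transcript start (GRCh38.p14, chr12:68808767-68809066, plus strand), and lies inside the annotated MDM2 gene. Capitals mark both 20-base stretches with at most 3 mismatches to the element.
MDM2 internal promoter: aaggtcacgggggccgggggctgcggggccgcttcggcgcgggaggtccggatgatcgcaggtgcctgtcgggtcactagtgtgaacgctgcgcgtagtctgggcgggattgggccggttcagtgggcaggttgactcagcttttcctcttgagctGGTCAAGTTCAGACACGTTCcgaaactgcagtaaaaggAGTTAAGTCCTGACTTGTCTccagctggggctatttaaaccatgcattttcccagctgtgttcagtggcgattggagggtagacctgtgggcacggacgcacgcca
The first stretch (chr12:68808923-68808942) had 2 mismatches, as few as in 0.649% of 35116 human promoter windows of 300 bases searched on both strands without a spacer. The second (chr12:68808961-68808980) had 3, and 5.2% of windows held a stretch with 3 or fewer.

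Another MDM2 window, shifted by a few bases, holds the same stretches, and the first promoter of MDM2 and the windows of the other members matched the element less closely without a spacer. All 5 members matched the RefSeq table, with 12 windows in all, some of which overlap. The best stretch had 4 mismatches in PPM1D, a level that 26% of all windows reach, and 5 in the first promoter of MDM2, in MDM4 and in RCHY1, reached by 70.5%. CCNG1 had 6 mismatches without a spacer, reached by 97.4%, and 2 when a spacer of up to 13 bases was allowed, reached by 7.82%. No member window held an exact half-site, and 6.63% of all windows did. These matches describe letters in windows of 300 bases and say nothing about sites elsewhere in the genes.

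Values are CPM, read counts relative to library size, scaled by the TMM method (trimmed mean of M-values), which corrects for differences in library composition. Total counts ranged from 25062996 in the wild-type p53 library to 39297534 in the p53-M133T library, and the fewest counts for any member in any library were 557. With 1 library in each group there were no replicates, so ratios between libraries carry a 95% Clopper-Pearson interval that covers counting error only and no p-value. Of 7 colon epithelial markers, 6 reached 1 CPM in every library, and VIL1, the other, was at 0 in 2. The wild-type p53 library has another prefix in its description than the other 6. What the prefix marks is not stated, so any batch and genotype cannot be told apart. That library also held 67.8 CPM summed over 10 leukocyte markers against 4.74 to 9.06 CPM elsewhere. Nearly all of it was MPO, CD68 and LYZ, and PTPRC had 4 counts.

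MDM2 (ENSG00000135679, GRCh38 chromosome 12, 68808176 to 68850686, plus strand) was high in 1 library. It stood at 243 CPM with wild-type p53, 150 CPM in vector cells, 222 CPM in vector cells with ATO, 131 CPM with p53-M133T, 550 CPM with p53-M133T and ATO, 150 CPM with p53-R273H and 184 CPM with p53-R273H and ATO. The p53-M133T library with ATO was 2.26-fold (2.20 to 2.33) above the next, wild-type p53. The same line without ATO was the lowest of the 7 in these values. After a correction for gene length and GC content, untreated p53-R273H cells lay below untreated p53-M133T cells in their ratio to vector. In RNA from bulk cultures, more cells with a transcript and more transcript per cell cannot be told apart. Neighbours in the order differed beyond counting error except vector and p53-R273H without ATO, whose ratio was 1.00 (0.963 to 1.04).

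MDM4 (ENSG00000198625, chromosome 1, 204516379 to 204558120, plus strand) had its 3 highest levels in the 3 libraries with ATO. It stood at 91.5 CPM with wild-type p53, 108 and 122 CPM in vector cells without and with ATO, 92.2 and 129 CPM with p53-M133T, and 112 and 134 CPM with p53-R273H. The wild-type p53 library was the lowest, within counting error of untreated p53-M133T. Highest and lowest differed by 1.46-fold, against 4.20-fold for MDM2.

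PPM1D (ENSG00000170836, chromosome 17, 60600183 to 60666280, plus strand) varied least of the 5, by 1.39-fold between the highest and lowest library. Its levels were 45.9 CPM with wild-type p53, 37.3 and 40.1 CPM in vector cells without and with ATO, 42.7 and 51.8 CPM with p53-M133T, and 39.1 and 40.3 CPM with p53-R273H. The p53-M133T library with ATO was again on top, 1.13-fold (1.05 to 1.21) above wild-type p53, and every lower neighbouring pair lay within counting error.

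CCNG1 (ENSG00000113328, chromosome 5, 163437569 to 163446151, plus strand) shared its top level between wild-type p53 and ATO-treated p53-M133T. It stood at 229 CPM with wild-type p53, 167 and 205 CPM in vector cells without and with ATO, 150 and 224 CPM with p53-M133T, and 145 and 185 CPM with p53-R273H. The highest pair of libraries differed by 1.02-fold (0.991 to 1.06), within counting error.

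RCHY1 (ENSG00000163743, chromosome 4, 75479037 to 75514764, minus strand) was the least abundant and separated the libraries by drug. It stood at 21.6 CPM with wild-type p53, 25.1 and 37.1 CPM in vector cells without and with ATO, 21.9 and 31.9 CPM with p53-M133T, and 22.9 and 36.9 CPM with p53-R273H. All 3 libraries with ATO lay above all 4 without it. RCHY1 shares 547 exon bases with THAP6, a gene on the opposite strand with a summed count of 5765 over all libraries. Whether counting used strand is not given in the sources used here, and without it their reads cannot be told apart.

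Per kilobase of exon, the order of the members differed from their order in CPM, because MDM2 has 13284 bases of annotated exon and CCNG1 3096. Mean levels over the 7 libraries were 60.2 CPM per kilobase for CCNG1, 17.5 for MDM2, 10.2 for MDM4, 8.42 for PPM1D and 4.29 for RCHY1. MDM2 shares exon bases with the carboxypeptidase M gene on the opposite strand, which had a summed count of 398 over all libraries, and with an antisense transcript and a pseudogene.

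**Figure D1:**
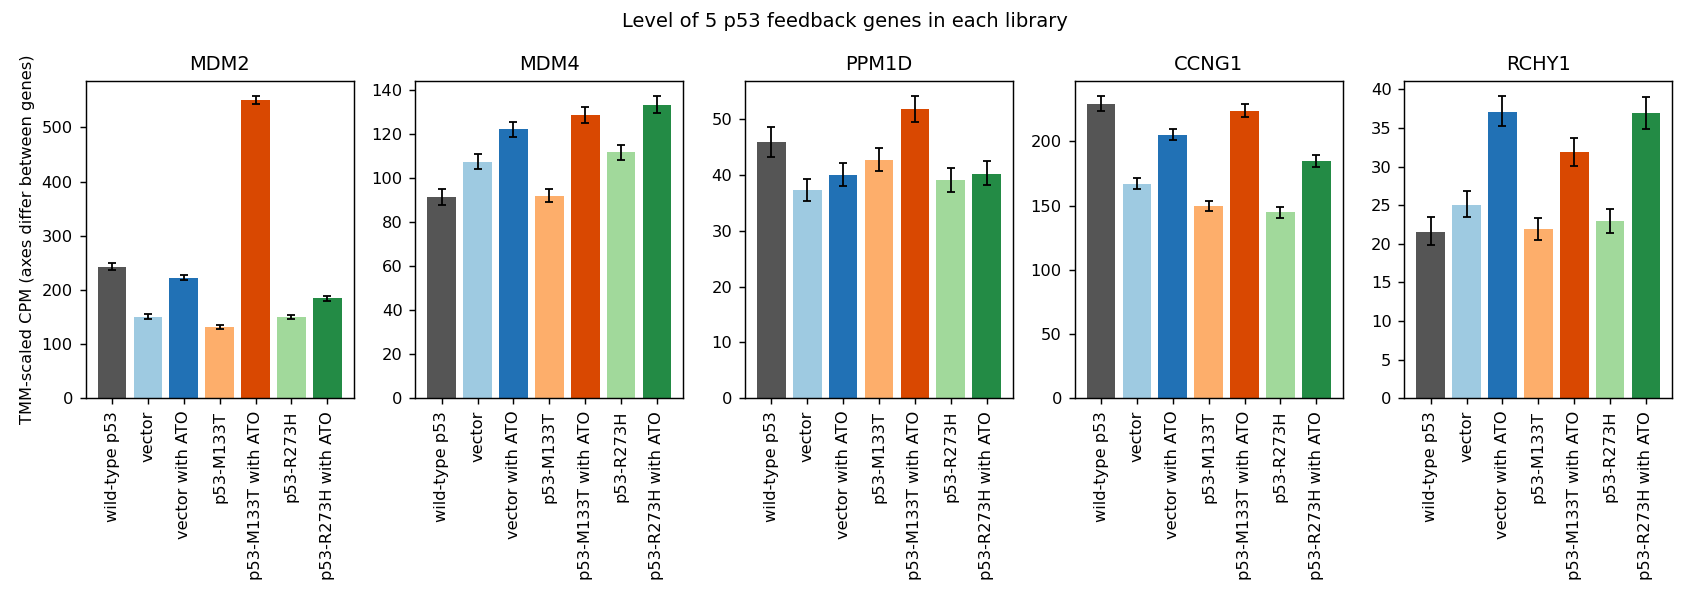
Level of each of the 5 genes in TMM-scaled CPM (vertical axes from 0, which differ between genes) in the 7 libraries, 1 bar a library, with 95% counting intervals. MDM2 reaches 550 CPM in p53-M133T cells with ATO and 131 to 243 CPM elsewhere, while RCHY1 is higher in all 3 libraries with ATO.

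ATO against no ATO within each line asked how the drug changed the feedback genes with no p53, with p53-M133T and with p53-R273H. In p53-M133T cells MDM2 was 4.20-fold higher with ATO (4.07 to 4.33), which placed it at rank 16 of 12661 genes by log2 ratio. In vector cells the ratio was 1.48 (1.43 to 1.53), in cells with no p53 construct, and in p53-R273H cells 1.23 (1.18 to 1.27). The cyclin-dependent kinase inhibitor gene CDKN1A, the comparison gene for a p53 response, had ratios of 4.20, 1.38 and 1.21 in the same order of lines.

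CCNG1 also had its highest ratio in p53-M133T cells, though a far smaller one. Its ratios were 1.49 (1.45 to 1.54) in p53-M133T, 1.23 (1.19 to 1.27) in vector and 1.28 (1.23 to 1.32) in p53-R273H cells. MDM4 had ratios of 1.40 (1.34 to 1.46), 1.14 (1.09 to 1.19) and 1.19 (1.14 to 1.25) in that order. For PPM1D they were 1.21 (1.14 to 1.30), 1.07 (0.997 to 1.16) and 1.03 (0.956 to 1.11), so that the interval excluded a ratio of 1 in p53-M133T cells alone. After a correction for gene length and GC content, the MDM4 log2 ratio was 0.16 in p53-M133T (0.48 before), 0.04 in vector (0.18) and 0.19 in p53-R273H cells (0.25), so p53-M133T was no longer the highest. The same correction took CCNG1 to 0.52, 0.13 and 0.14 in these lines (0.58, 0.30 and 0.35 before). RCHY1 showed another pattern, with 1.46 (1.33 to 1.59) in p53-M133T, 1.48 (1.36 to 1.61) in vector and 1.61 (1.47 to 1.76) in p53-R273H cells, and its log2 ratio in p53-M133T cells went from 0.52 to 0.34 with the correction. The PPM1D log2 ratio in vector cells went from 0.10 to 0.02.

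MDM2 was the 1 member of 5 that passed a size rule of 2-fold, and it did so in p53-M133T cells, where 1.35% of 12661 genes passed it upward with ATO and 0.971% downward. None of the 5 passed it in vector cells, where 0.671% were higher and 0.987% lower, or in p53-R273H cells, with 0.592% and 0.782%. The log2 ratio was above 0 for all 5 members in all 3 lines, as it was for 35.5% of all genes, but for PPM1D in p53-R273H cells it went from 0.04 to -0.01 both with library totals alone and after the length and GC correction. Median log2 ratios over the members were 0.30 in vector, 0.52 in p53-M133T and 0.29 in p53-R273H cells, against 0.02, 4.1e-04 and 0.01 over all genes.

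**Figure D2:**
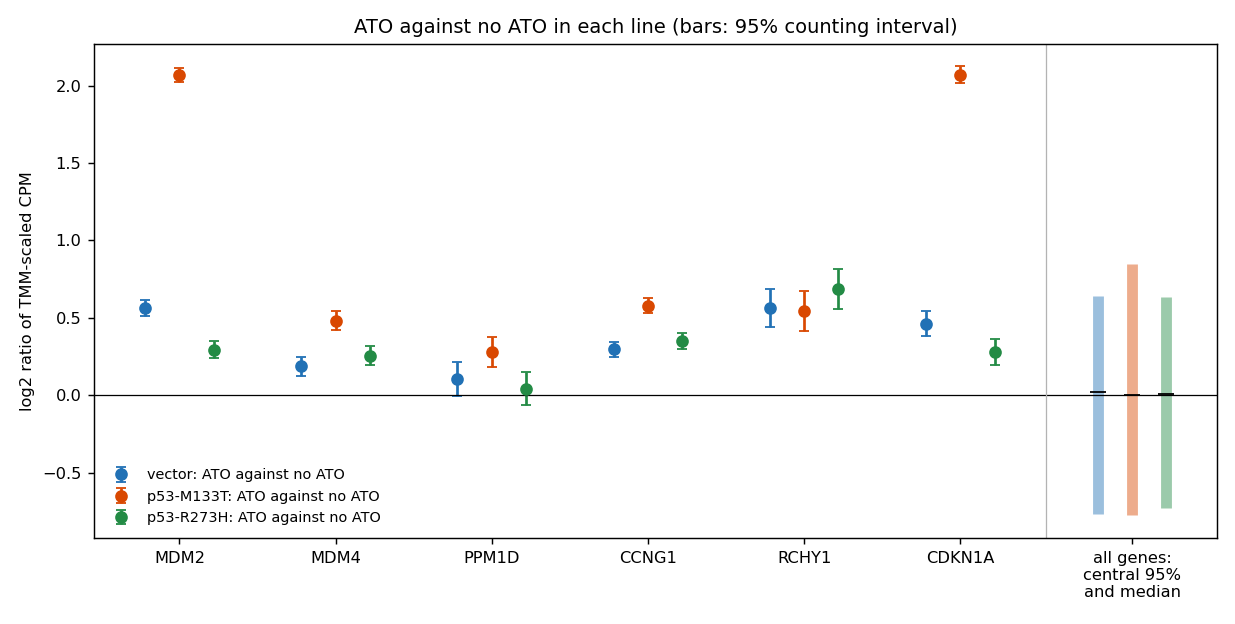
Log2 ratio of TMM-scaled CPM with against without ATO for the 5 genes and CDKN1A in the 3 lines, with 95% counting intervals, and at the right the central 95% and median of 12661 genes. MDM2 and CDKN1A stand at 2.07 in p53-M133T cells, and RCHY1 lies at 0.54 to 0.69 in all 3 lines.

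The ATO effect common to the 3 lines was tested with the line as a block, so that the lines served as replicates of the treatment. By the quasi-likelihood test of edgeR, with p-values adjusted by Benjamini-Hochberg over all genes, RCHY1 rose by a log2 change of 0.59 ± 0.06 (SE, adjusted p = 4.2e-04), CCNG1 by 0.40 ± 0.07 (0.00277), MDM4 by 0.30 ± 0.07 (0.0104) and MDM2 by 0.96 ± 0.29 (0.0299). PPM1D had a log2 change of 0.14 ± 0.07 (adjusted p = 0.130). Thus 4 of the 5 members rose and none fell, where 22.3% of 13572 genes rose and 20.9% fell.

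MDM2 had the largest change and the largest error of the 5 in this test, since its ratio differed so much between lines. Without the p53-M133T pair its log2 change was 0.42 in the remaining pairs (edgeR, adjusted p = 6.4e-15). That fit had 1 residual degree of freedom and took its spread from all genes together. Its p-value therefore does not measure the spread of MDM2 between lines, whose log2 ratios were 0.56 in vector and 0.29 in p53-R273H cells. For MDM2, the DESeq2 Wald test on all pairs gave an adjusted p of 0.147. The call for MDM4 was lost after a correction for gene length and GC content (log2 change 0.13, adjusted p = 0.0804).

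Whether the ATO effect differed between lines was tested for each line against the mean effect of the other 2. For p53-M133T, MDM2 had a log2 difference of 1.64 ± 0.09 (SE, edgeR's quasi-likelihood test, adjusted p = 1.05e-35), beside 1.70 ± 0.09 for CDKN1A. MDM2 was the 1 member of 5 called, where 5.84% of 13974 genes were called higher and 2.43% lower. Against single lines the difference in MDM2 log2 ratios was 1.51 (1.44 to 1.57, counting error only) from vector, at rank 16 of 12661 genes, and 1.78 (1.71 to 1.84) from p53-R273H, at rank 5. This test has 1 residual degree of freedom, from the difference between vector and p53-R273H cells. Its p-values lean on a spread shared across genes. Over 5 alternative fits the MDM2 difference was 1.44 to 1.65, and its SE does not include such choices of processing.

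MDM4 and CCNG1 lay at the threshold of that test. The log2 difference was 0.26 ± 0.09 for MDM4 (adjusted p = 0.0504) and 0.26 ± 0.09 for CCNG1 (adjusted p = 0.0525). Both were called with DESeq2's size factors in edgeR (0.0486 and 0.0483) and when genes under a mean of 10 CPM were left out (0.0205 and 0.0219), and neither by the DESeq2 Wald test (0.565 and 0.435). A length and GC correction moved them apart, to adjusted p-values of 0.813 for MDM4 and 1.3e-04 for CCNG1.

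PPM1D had a difference of 0.21 ± 0.11 (adjusted p = 0.270). For RCHY1 it was -0.08 ± 0.13 (adjusted p = 0.814), with counting intervals of -0.20 to 0.15 for p53-M133T minus vector and -0.32 to 0.03 for p53-M133T minus p53-R273H.

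The p53-R273H and vector lines gave no call for any member by edgeR's test. For p53-R273H, MDM2 had a log2 difference of -1.02 ± 0.28 (adjusted p = 0.195) from the mean of vector and p53-M133T. It was the 1 member with an unadjusted p under 0.05, and it was called without the filter on low counts (adjusted p = 1.2e-07) and on genes with a mean of at least 10 CPM (8.8e-04). These fits had 1 residual degree of freedom and lean on a spread shared across genes. The prior degrees of freedom, the weight of that spread, were 32.24 in the main fit, infinite without the filter and 104.7 at 10 CPM. In the main test of p53-R273H 0.15% of genes were called higher and 0.0716% lower, and DESeq2 called no member. Against vector alone, the p53-R273H difference for MDM2 was -0.27 (-0.34 to -0.20, counting error only). For vector, 0% of genes were called in either direction by edgeR, 178 genes had an unadjusted p under 0.05 with no member among them, and DESeq2 called 2 genes and no member.

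The p53 forms without drug were compared with vector, to see what each form did to the feedback genes before ATO. Wild-type p53 had ratios of 1.62 (1.56 to 1.68) for MDM2, 1.37 (1.32 to 1.42) for CCNG1 and 1.23 (1.14 to 1.33) for PPM1D. MDM4 and RCHY1 were lower, at 0.851 (0.808 to 0.896) and 0.860 (0.772 to 0.957). CDKN1A had a ratio of 3.22 (3.06 to 3.39), so MDM2 differed less than CDKN1A between these libraries. No member was 2-fold apart, where wild-type p53 put 2.87% of genes 2-fold or more above vector and 1.96% below it.

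The mutants without drug had ratios to vector between 0.857 and 1.15 over the 5 members. With p53-M133T, MDM2 had a ratio of 0.871 (0.838 to 0.905), MDM4 0.857 (0.819 to 0.897), CCNG1 0.897 (0.865 to 0.930) and RCHY1 0.873 (0.794 to 0.960). PPM1D stood apart at 1.15 (1.07 to 1.23), and CDKN1A at 1.40 (1.32 to 1.47). After the length and GC correction, the p53-M133T log2 ratios were -0.02 for MDM2 (-0.20 before), -0.04 for MDM4 (-0.22) and -0.08 for RCHY1 (-0.19), so that these lower values shrank with that choice. With p53-R273H, CCNG1 had a ratio of 0.866 (0.834 to 0.899), and the other 4 members lay between 0.913 and 1.05 with intervals that include 1, and the same correction turned the MDM4 log2 ratio from 0.06 to -0.03 and took that of MDM2 from 0.00 to -0.09. No member was 2-fold apart in either comparison, where 0.0948% of genes were higher and 0.111% lower with p53-M133T, and 0.0711% and 0.103% with p53-R273H. These comparisons share the vector library.

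**Figure D3:**
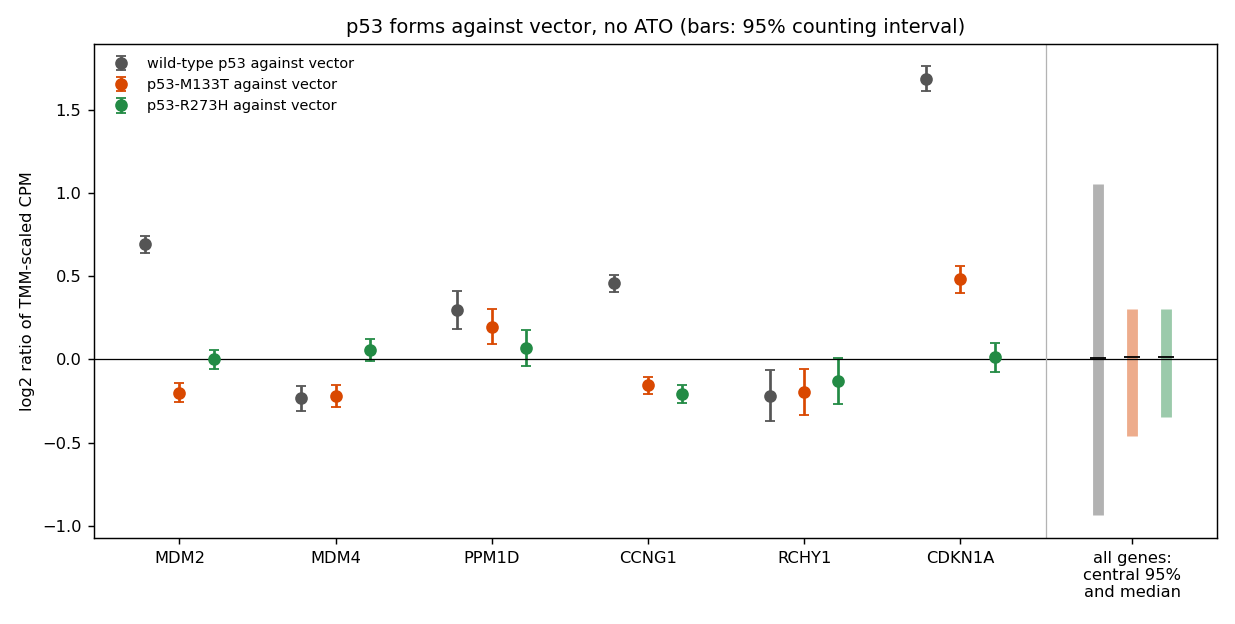
Log2 ratio of TMM-scaled CPM for wild-type p53, p53-M133T and p53-R273H against vector, all without ATO, for the 5 genes and CDKN1A, with 95% counting intervals and the central 95% and median of 12661 genes. MDM2 stands at 0.69 with wild-type p53, -0.20 with p53-M133T and 0.00 with p53-R273H.

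Wild-type p53 was also tested against the 3 untreated other lines together, whose differences serve as the spread. MDM2 rose by a log2 change of 0.75 ± 0.11 (SE, edgeR's quasi-likelihood test, adjusted p = 0.0029) and CCNG1 by 0.57 ± 0.12 (0.00993), and the wild-type library lay above all 3 others for both. PPM1D had a change of 0.20 ± 0.12 (adjusted p = 0.241), RCHY1 -0.12 ± 0.13 (0.540) and MDM4 -0.19 ± 0.13 (0.330). Thus 2 of 5 members rose and none fell, where 12.4% of 13901 genes rose and 12.8% fell. MDM4 was called lower without the p53-M133T library (log2 change -0.27, adjusted p = 0.0284) and after the length and GC correction (-0.27, 0.0236). The leukocyte markers MPO, LYZ and CD68 rose in the same test, and their part in these results was not tested.

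With ATO in all compared libraries, MDM2 set p53-M133T apart. It was 2.98-fold higher (2.90 to 3.07) than in p53-R273H cells with ATO, at rank 9 of 12661, and 2.48-fold higher (2.41 to 2.54) than in vector cells with ATO, at rank 13. PPM1D followed with 1.29-fold against each of them (1.20 to 1.38 and 1.21 to 1.38), at ranks 401 and 304. MDM4 differed little, by ratios of 0.964 (0.926 to 1.00) and 1.05 (1.01 to 1.10), and RCHY1 was lower at 0.865 (0.799 to 0.936) and 0.860 (0.795 to 0.929). CCNG1 was higher than in p53-R273H cells by 1.21-fold (1.17 to 1.25) and than in vector cells by 1.09-fold (1.06 to 1.13). The length and GC correction took the RCHY1 log2 ratios from -0.20 to -0.03 and from -0.21 to -0.10, and those of CCNG1 from 0.28 to 0.44 and from 0.12 to 0.23.

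MDM2 was the 1 member at least 2-fold apart in both of these comparisons, where 0.19% of genes were higher in each and 0.0632% and 0.0395% lower. Between p53-R273H and vector cells with ATO no member was 2-fold apart, where 0.103% of genes were higher and 0.0711% lower, and the MDM2 ratio was 0.830 (0.803 to 0.857).

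Beside wild-type p53 without ATO, p53-M133T cells with ATO had MDM2 at 2.26-fold (2.20 to 2.33), RCHY1 at 1.48-fold (1.34 to 1.64) and MDM4 at 1.41-fold (1.34 to 1.48). PPM1D was 1.13-fold higher (1.05 to 1.21), and CCNG1 had a ratio of 0.976 (0.944 to 1.01). CDKN1A had a ratio of 1.82 (1.76 to 1.88). MDM2 was the 1 member at least 2-fold higher, where 2.72% of genes were higher and 5.24% lower. Drug, p53 form and description prefix all differ between these libraries and cannot be told apart.

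The balance of MDM2 to its relative MDM4 needs no scaling for library size, since both are counted in the same library. A bias of a library by gene length or GC content does not cancel, and was not corrected in these ratios. The ratio of MDM2 to MDM4 counts was 2.66 with wild-type p53, 1.40 and 1.82 in vector cells without and with ATO, 1.42 and 4.27 with p53-M133T, and 1.34 and 1.38 with p53-R273H. The 3 untreated lines without wild-type p53 lay within 1.34 to 1.42, and p53-M133T with ATO was the highest of the 7 (4.14 to 4.41, counting error). Corrected for exon length, that library had 3.54 MDM2 per MDM4 and untreated p53-M133T cells 1.18.

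In p53-M133T and p53-R273H cells, MDM2 had nearly the same ratio to CDKN1A without and with ATO. The ratio of MDM2 to CDKN1A counts was 1.54 (1.47 to 1.61) in p53-M133T cells without and 1.54 (1.51 to 1.58) with ATO, although each gene was 4.20-fold higher with the drug. In p53-R273H cells it was 2.45 and 2.47, in vector cells 2.47 and 2.65, and with wild-type p53 1.24. Within each of the 3 lines the counting intervals without and with ATO overlap, which does not show that the ratios are equal. In vector cells the ATO log2 ratio was 0.56 for MDM2 and 0.46 for CDKN1A. The wild-type p53 library had the lowest MDM2 to CDKN1A ratio of the 7.

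**Figure D4:**
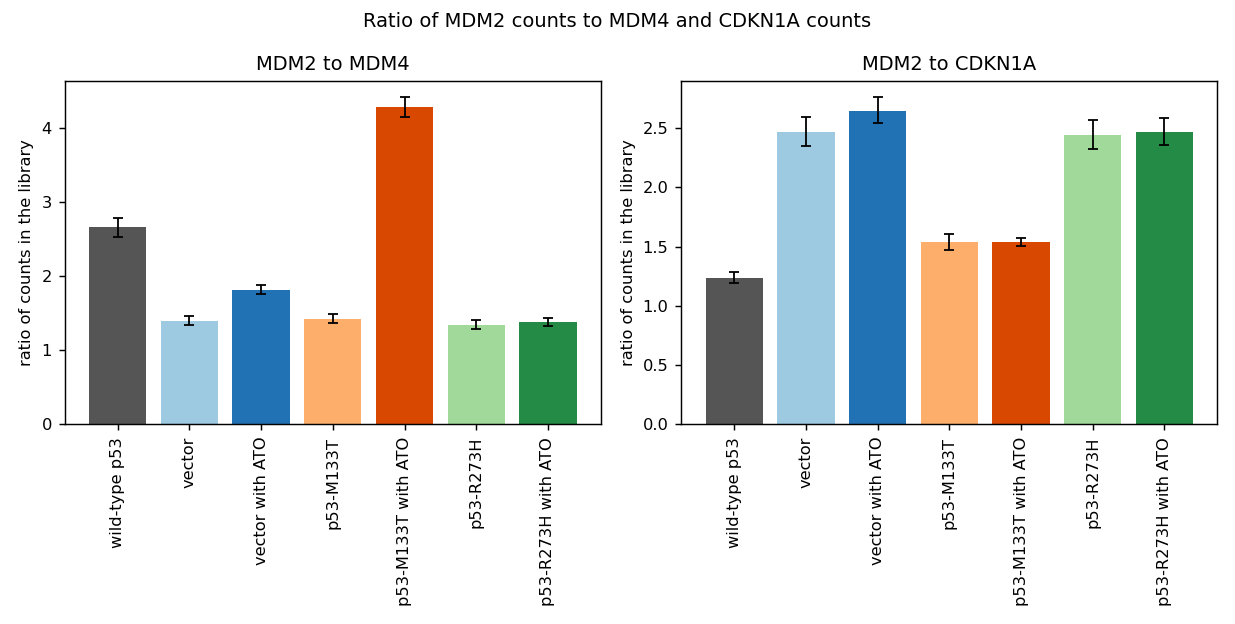
Ratio of MDM2 counts to MDM4 counts (left) and to CDKN1A counts (right) in each of the 7 libraries, with 95% counting intervals and axes from 0. MDM2 to MDM4 reaches 4.27 in p53-M133T cells with ATO and 1.34 to 2.66 elsewhere, while MDM2 to CDKN1A is 1.54 in p53-M133T cells without and with ATO.

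Genes whose pattern over the 7 libraries was most like each member were found by Pearson's r of log2(CPM + 1) among 9649 genes with a mean of at least 10 CPM, as a description over libraries that share lines and drug. PPM1D was most like CDKN1A (r = 0.972), then MGRN1, a ubiquitin ligase gene (0.967), and NDUFV3, a subunit of respiratory complex I (0.945). Nearest to MDM2 were PRKAB1, a subunit of the energy sensor AMPK (r = 0.962), CHP1 (0.952) and EXOC4 (0.947), all with far smaller ranges than MDM2, and CDKN1A was at rank 25 (0.905). The MDM2 values are dominated by 1 library. CCNG1 was most like HEXA, a lysosomal enzyme gene (0.990), CCDC90B (0.987) and WIPI1 (0.983).

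MDM4 was most like SLC7A6, an amino acid transporter gene (0.995), CNOT6, a deadenylase subunit (0.991), and TTC14 (0.991), and RCHY1 was most like TCEA1, a transcription elongation factor (0.992), AP3S1 (0.991) and AZIN1 (0.990). Among the members themselves, r was 0.890 for MDM4 and RCHY1, 0.841 for MDM2 and PPM1D and 0.804 for MDM2 and CCNG1, against 0.02 for PPM1D with MDM4 and with RCHY1. Without the wild-type p53 library, 2 of these 15 nearest genes were still among the nearest 3 of their member, SLC7A6 and MGRN1. CDKN1A was then at rank 5 for PPM1D (r = 0.972) and at rank 47 for MDM2 (0.937). ZMAT3, a p53 target, was then among the nearest 3 of MDM2 and TNFRSF10B, another, among those of CCNG1.

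Other genes around p53 and MDM2 were counted in 7 lists by role. Of 21 tested p53 targets outside the feedback genes, 17 were called higher in p53-M133T than in the mean of the other lines and none lower by edgeR, where 5.84% and 2.43% of all genes were. DESeq2 called 4 higher and gave no adjusted p for 8. Under the common ATO effect 10 rose and 1 fell, beside 22.3% and 20.9% of all genes, and with wild-type p53 9 rose and 1 fell, beside 12.4% and 12.8%. CDKN1A had the highest ATO ratio of that list in p53-M133T cells. The lowest was FDXR, a mitochondrial reductase, with 0.944 in p53-M133T, 0.570 in vector and 0.693 in p53-R273H cells, a log2 difference of 0.59 for p53-M133T (edgeR, adjusted p = 9.5e-05, and 0.262 by DESeq2). The median log2 ratio of the list in p53-M133T cells was 0.91, against 0.10 in vector and 0.18 in p53-R273H cells.

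The 5 other feedback genes of p53 are read against 5.84% of all genes called higher and 2.43% lower for p53-M133T. All-gene shares were 12.4% risen and 12.8% fallen with wild-type p53, and 22.3% and 20.9% under the common ATO effect. Among these 5, TP53INP1, a stress protein that promotes p53 activity, stood out. It was at 11.9 CPM in p53-M133T cells without and 35.0 CPM with ATO, a ratio of 2.95 (2.65 to 3.28), beside 0.905 in vector and 1.17 in p53-R273H cells. It was the 1 gene of the list called higher for p53-M133T (log2 difference 1.54, adjusted p = 5.4e-14), with none lower, and DESeq2 gave it no adjusted p. With wild-type p53 TP53INP1 rose by 2.30 on the log2 scale (adjusted p = 3.1e-04) and TP73, a p53 relative, fell by 0.57 (0.00841). Under the common ATO effect COP1, a ubiquitin ligase of p53 listed in the table under its older symbol RFWD2, rose by 0.44 (adjusted p = 0.00111) and TP73 fell by 0.34 (0.00291), all by edgeR's test.

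Kinases that phosphorylate p53 or MDM2 were read against 5.84% of all genes called higher and 2.43% lower in the test of p53-M133T. Of 8, ATM, PRKDC, HIPK2 and ATR, which sense DNA damage or stress, were called higher for p53-M133T, with log2 differences of 0.76, 0.71, 0.59 and 0.56, and CHEK1, a checkpoint kinase, lower by edgeR's test (-0.31, adjusted p = 0.0283). DESeq2 called 3 of the 4 higher and CHEK1 not (adjusted p = 0.591), and CHEK1 had an adjusted p of 0.0540 without the filter on low counts. HIPK2 was the 1 kinase that rose under the common ATO effect (log2 change 0.41, adjusted p = 0.0225), and its levels were 157 CPM in p53-M133T cells without and 274 CPM with ATO. Without ATO, p53-M133T cells had less of it than vector cells, at 217 CPM. Over the 8 kinases, the median log2 ratio of p53-M133T to vector cells without ATO was -0.32, with 2 above and 6 below 0. With ATO in both lines it was -0.004, with 4 above and 4 below 0. The part of the lower untreated levels in the called differences was not tested. After the length and GC correction fewer genes of the whole table were called for p53-M133T, and the corrected values of these kinases are not given here. Over all genes, 22.3% rose and 20.9% fell under the common ATO effect, and 12.4% and 12.8% with wild-type p53. With wild-type p53, CHEK1 fell by 0.71 on the log2 scale (adjusted p = 0.00307), CHEK2 fell too and none of the 8 rose.

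Of 8 ubiquitin ligases of p53 other than the members, SYVN1, WWP1, TOPORS and UBE4B rose and STUB1 fell under the common ATO effect, where 22.3% of all genes rose and 20.9% fell, STUB1 by 0.27 on the log2 scale (edgeR's test, adjusted p = 0.0081). HUWE1, a large ligase that also acts on MCL1, was the 1 called for p53-M133T (log2 difference 0.66, adjusted p = 6.5e-08, and 0.179 by DESeq2), with 685 CPM without and 1185 CPM with ATO in that line. Without ATO the vector and p53-R273H lines had 898 and 1002 CPM of it. The difference for HUWE1 after the length and GC correction is not given here. Over all genes, 5.84% were called higher and 2.43% lower for p53-M133T. With wild-type p53, where 12.4% of all genes rose and 12.8% fell, WWP1 rose and UBE4B fell.

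The partners of CCNG1 were counted as 10 genes, PP2A subunits and the cyclin G kinase GAK. Of these 10 genes, 5 PP2A subunits rose and 1 fell under the common ATO effect, beside 22.3% and 20.9% of all genes. PPP2R5E, a regulatory subunit of the B56 family, rose by 0.38 on the log2 scale (edgeR's test, adjusted p = 0.00151) and PPP2R1A, the main scaffold subunit, fell by 0.34 (0.00139). Without the vector pair 2 of them rose and 1 fell, as after the length and GC correction. For p53-M133T none of the 10 was called by edgeR or DESeq2, and none had an unadjusted p under 0.05. PPP2R5B was the 1 gene of the list that rose with wild-type p53, where 12.4% of all genes rose and 12.8% fell.

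MDM2's binding partners and the deubiquitinases are read against 22.3% of all genes that rose and 20.9% that fell with ATO. Of 8 partners, among them the ribosomal proteins that sequester MDM2, NUMB, an adaptor protein, rose under the common ATO effect (log2 change 0.23, edgeR's test, adjusted p = 0.0179) and none fell. Their log2 ratio in p53-M133T cells was lowest for RPL11, with CPM of 574 without and 540 with ATO. None was called for p53-M133T by edgeR or DESeq2, with 2 at an unadjusted p under 0.05, both lower. With wild-type p53, where 12.4% of all genes rose and 12.8% fell, MTBP and CDKN2A fell. Of 6 deubiquitinases, USP10 rose and OTUB1 and USP2 fell under the common ATO effect, OTUB1 by 0.21 on the log2 scale (adjusted p = 0.0274). USP42 had the highest ratio of this list in p53-M133T cells, 1.18 (1.09 to 1.28). None of the 6 was called for p53-M133T or with wild-type p53 by edgeR or DESeq2, with 1 and 0 at an unadjusted p under 0.05.

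Without the vector library or pair, FDXR, HIPK2, NUMB, OTUB1, USP10, USP2, STUB1, TOPORS and UBE4B were no longer called under the common ATO effect, nor TP73, CHEK2, WWP1 and UBE4B with wild-type p53. Without the p53-R273H pair OTUB1 and USP2 lost their calls as well.

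**Figure D5:**
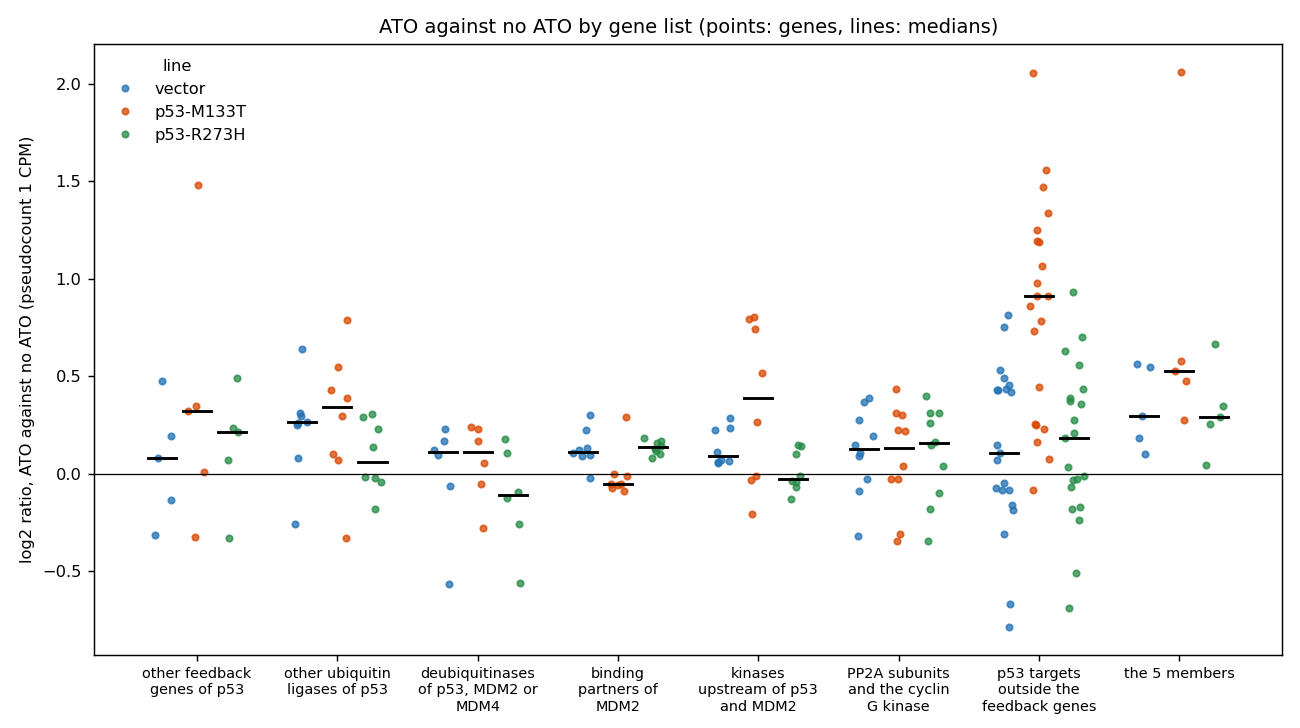
Log2 ratio with against without ATO (pseudocount 1 CPM) of each gene in the 7 lists and the 5 members, by line, with medians as black lines. The p53 targets outside the feedback genes have a median of 0.91 in p53-M133T cells, and MDM2 is the member at 2.06 there.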

How the data were processed

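RNA-seq was analysed for 7 libraries of HCT116 p53-/- cells, 1 in each group. The authors deposited whole-number counts per gene, not normalized, in 1 table of 7 columns. A TruSeq kit and paired-end sequencing were used, per the labels' protocols, and FastQC, cutadapt, STAR and hg38 were used, per the submitters' processing notes. How reads were counted, and whether by strand, is not given in the sources used here, so values of genes with shared exons are uncertain. Coordinates and exon lengths came from GENCODE 29 by Ensembl identifier, which matched for all 19699 genes, and promoter windows from RefSeq on GRCh38.p14.

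Counts were scaled by TMM in edgeR 4.0.16 (R 4.3.3), with factors from 0.967 to 1.03. Among the 12661 genes that reached 1 CPM in some library, 10 pairs of libraries were compared by log2 ratios with a pseudocount of 1 and a size rule of 2-fold. Printed ratios are of scaled counts, with 95% Clopper-Pearson intervals from both counts, and levels have exact Poisson intervals. Both cover counting error only, as there were no molecular identifiers and PCR copies count as reads.

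The 5 tests used edgeR's quasi-likelihood fit after its filter on low counts, adjusted by Benjamini-Hochberg over all genes at 0.05, and were tested on simulated data. Lines stand in for replicates, so p-values reflect the spread between these libraries, and tests that use the same libraries are not independent. Residual degrees of freedom were 2 in the common and wild-type tests and 1 in the others, and the p53-M133T test had 157.6 prior degrees of freedom. The 2 libraries of a line come from the same line and were paired. Their deviations from treatment means correlated by 0.193 in vector, 0.16 in p53-M133T and 0.278 in p53-R273H cells over 12164 genes.

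The members and lists were chosen with earlier results of these data known. Named genes are the members, CDKN1A, the highest and lowest ratio of each list in p53-M133T cells with ATO against without, and the 3 genes most like each member. Other list genes were named because a test called them, and ZMAT3, TNFRSF10B and the leukocyte markers were named after their values were seen. Alternatives were edgeR with DESeq2 size factors, DESeq2 1.42.0, other filters, pseudocounts and scalings, a length and GC correction in 6 by 6 bins, leaving out a line, and no block. The first introns and the proteins were not analysed here. Some genes are not reported here.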

Additional observations from a re-analysis of the deposited data

Results flagged for a closer look

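These genes had an ATO effect in p53-M133T cells that differed from the mean effect in vector and p53-R273H cells by edgeR's quasi-likelihood test of that difference. MDM2 differed by 1.64 on the log2 scale, with ATO ratios of 4.20 in p53-M133T, 1.48 in vector and 1.23 in p53-R273H cells. CDKN1A differed by 1.70 and TP53INP1 by 1.54. HUWE1 differed by 0.66, HIPK2 by 0.59 and FDXR by 0.59, and CHEK1 by -0.31. Untreated p53-M133T cells had the lowest HUWE1 and HIPK2 levels of the 3 lines, at 685 and 157 CPM, so their ratios start from a lower level. The part of that starting level in the ratios was not tested.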

How the results depend on the processing

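In the 5 tests of the 5 members, all but 11 alternative fits kept the side of the threshold, and no called member reversed, while the uncalled MDM4 difference for p53-R273H went from -0.07 to 0.10 after the length and GC correction. For the common ATO effect, MDM2 had an adjusted p of 0.147 with DESeq2 (log2 change 0.96) and MDM4 one of 0.0804 after the length and GC correction with the block (0.13). Without the replicate block, pairing the libraries of a line no longer, the log2 changes were 1.14 for MDM2, 0.30 for MDM4, 0.14 for PPM1D, 0.40 for CCNG1 and 0.59 for RCHY1, with the same calls. In the test of p53-R273H, MDM2 was called without the filter (-1.03) and with a mean of at least 10 CPM (-0.9997). In the test of p53-M133T, the log2 differences of the calls gained were 0.27, 0.26 for MDM4 and 0.26, 0.26 and 0.40 for CCNG1, under DESeq2 size factors, a mean of at least 10 CPM and, for CCNG1, the length and GC correction. With wild-type p53, MDM4 was called after that correction (-0.27), and leaving out 1 line gave -0.27 to -0.13. Against single lines, the MDM2 differences were 1.51 and 1.78 for p53-M133T from vector and p53-R273H, which for those lines are -1.51 and -1.78. The causes were not tested.

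Counts over all genes also moved. Common ATO calls numbered 5859, and 2914 to 6839 without 1 line, fewest without vector. Calls for p53-M133T were 1156, with 161 by DESeq2, which gave no adjusted p for 7044 genes, and 768 after the length and GC correction. Calls for p53-R273H were 31, with 5 by DESeq2, 101 without a filter and 17 after that correction. For vector there were 0, 2 by DESeq2 and 5 without a filter. Wild-type calls were 3508, and 2020 to 4519 without 1 line. Of 15 nearest genes, 2 were kept without wild-type p53. With 1 library a group, culture-to-culture spread was not measured, and members had 557 counts or more, so counting error was small.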
